A study of Mus musculus with 8 samples.

Results

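The 71 genes described here encode extracellular matrix proteins and a few further products of stromal cells. They were taken by symbol from the 24506 genes of the count table, by a rule that uses no measured value but was written with earlier results of these data known. The set holds 11 chains of fibril-forming collagens, 33 chains of other collagens, 11 laminin chains, the 4 tissue inhibitors of metalloproteinases (TIMPs), 9 matrix glycoproteins and proteoglycans, and the trio of Pdgfra, Pdgfrb and Cxcl12. The genes that stand for the set are Timp3, Lama5 and Col1a1. The comparison of interest is between members whose RNA varied with stromal genes and members whose RNA did not.

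RNA was sequenced from mouse T-cell progenitors, which were grown from bone marrow on OP9-DLL1 stromal cells and sorted by flow cytometry, in 8 libraries that make 4 groups of 2. All groups, the controls included, came from B6 mice that carry Cas9, a Bcl2 transgene and the Bcl11b-mCherry reporter. The age of the mice, the promoters of the transgenes and the target of the control guides are not given in the sources used here. Retrovirus delivered either control guides or 3 guides against Stat5a together with 3 against Stat5b (sgStat5), after a night with IL-7, Flt3 ligand and SCF. Culture then lasted 6 days, with 10 ng/ml of each of IL-7 and Flt3 ligand. The sort took cells that lacked lineage markers and carried the infection marker and CD25. The early groups were mCherry-negative, which the labels call pre-commitment, and the late groups were mCherry-positive, which they call post-commitment. The series text calls the late cells reporter negative as well, and Bcl11b stood at 45.6 to 132 CPM (counts scaled to library size) in the early and 219 to 797 CPM in the late libraries. Stat5a stood at 238 to 258 CPM in the control and 105 to 116 CPM in the sgStat5 libraries. The labels do not say whether the replicates were separate cultures or animals, so p-values measure the spread between these libraries, which may be technical.

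Collagens form the fibrils, networks and microfilaments of connective tissue, and laminins are the cross-shaped trimers on which basement membranes are built. Fibronectin, thrombospondins, fibrillin and small proteoglycans link these polymers to each other and to integrins, and TIMPs block the metalloproteinases that cut them. In bone marrow the matrix is made mainly by mesenchymal stromal cells, which also secrete CXCL12, the chemokine that holds progenitors in place. OP9-DLL1 is a line of such cells that displays the Notch ligand DLL1, and T-cell progenitors grow attached to it. RNA of a sorted pool can therefore hold matrix transcripts of either partner of the culture. A library of OP9-DLL1 cells alone was not analysed here. In bulk RNA, fewer cells of a type and less RNA per cell cannot be told apart.

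Library totals ran from 22146490 to 31209177 counts. All 10 T-progenitor markers checked, such as Il2ra and Gata3, were detected and summed to 4568 to 8135 CPM. Some differed between replicates, given here with replicate 1 first. Cd3e had 35.7 and 3.73 CPM in early control against 19.1 and 3.80 in early sgStat5. Late control had 237 and 29.7 CPM of it against 142 and 21.8 in late sgStat5. Replicate 1 was above replicate 2 in every group for Cd3e, Cd3g, Bcl11b, Tcf7, Thy1, Ptcra and Lck, but not for Il2ra, Gata3 and Ptprc. Il2ra was lower with sgStat5 in every pair of the same gate and number. Members took 0.0401% of counts in early sgStat5 replicate 1, the lowest share, and 0.165% in late control replicate 2, the highest. Of the 71 members, 9 had no count in any library (Col19a1, Col22a1, Col24a1, Col6a4, Col6a5, Col6a6, Col9a1, Lama2 and Lum). A further 13 stayed under 10 counts in every library, among them Dcn, Lamc3 and Timp4. The other 49 reached 10 counts in at least 1 library, and 45 of them entered the tests. For a count of 0 the limit was taken as 3 counts, which is 0.0961 to 0.135 CPM depending on the library. Intervals of this kind cover counting error only.

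A stromal index was formed as the summed CPM of 39 stromal genes that are not members, such as Dll1, Prrx1, Lox and Fstl1. In the text below, the value of replicate 1 always stands before that of replicate 2. The index was 70.1 and 269 CPM in early control against 41.7 and 228 in early sgStat5, and 103 and 413 in late control against 113 and 379 in late sgStat5. Replicate 2 was above replicate 1 in every group, by 3.84 (early) and 4.02 times (late) with control guides and by 5.46 (early) and 3.37 times (late) with sgStat5. The late library was above the early library of the same guides and number in 4 of 4 pairs, by 1.47 to 2.70 times. Dll1, the ligand that the OP9-DLL1 line displays, had 27 and 309 counts in early control against 10 and 219 in early sgStat5, and 60 and 460 in late control against 62 and 353 in late sgStat5. The least stromal library was early sgStat5 replicate 1. In it 15 of the 39 index genes were at 0 and 27 were under 10 counts, among them Prrx1, a mesenchymal transcription factor (0 counts) and Lox, which cross-links collagen (1 count). These 27 genes summed to 1.48 CPM there and to between 15.9 and 288 CPM in the other 7 libraries. The rest of the index was still present in that library, led by Acta2 at 8.99 CPM, Axl at 8.31 CPM and Cdh11 at 8.27 CPM. Cdh11 ran from 7.94 to 15.6 CPM over all 8 libraries, so the index does not approach 0 even where most of its genes do.

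Each of the 49 members was set against this index by the slope of its log2(CPM + 0.5) on the log2 of the index over the 8 libraries. A slope of 0 means no straight-line trend with the index over the 8 libraries. A slope of 1 means that the member varied in proportion to it. The slopes are descriptions with no test. The 8 points share groups and replicate numbers, and the index and the members come from the same libraries. Slopes fell on either side of a gap, with 26 members at 0.70 (Col16a1) or more and 23 at 0.42 (Lama3) or less, and the division was set at 0.5. Among the 45 tested members the median slope was 0.85 and 57.8% were at 0.5 or more. Over all 13775 tested genes the median was -0.0015 and 3.05% were at 0.5 or more, and over the 34 tested genes of the index the figures were 0.85 and 70.6%. Members with a slope above 1 were under 1 CPM in early sgStat5 replicate 1, where the index kept its remainder, except Fbn1 (4.54 CPM). Leaving out any 1 of the 8 libraries moved no member across 0.5. The division does depend on which genes make the index. With Col1a1, Col1a2 and Col3a1 as the index, 14 of 46 members were at 0.5 or more, and the 9 that changed side were Col16a1, Col18a1, Col5a3, Col8a1, Fbn1, Lamb1, Lamb2, Postn and Thbs2.

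**Figure D1:**
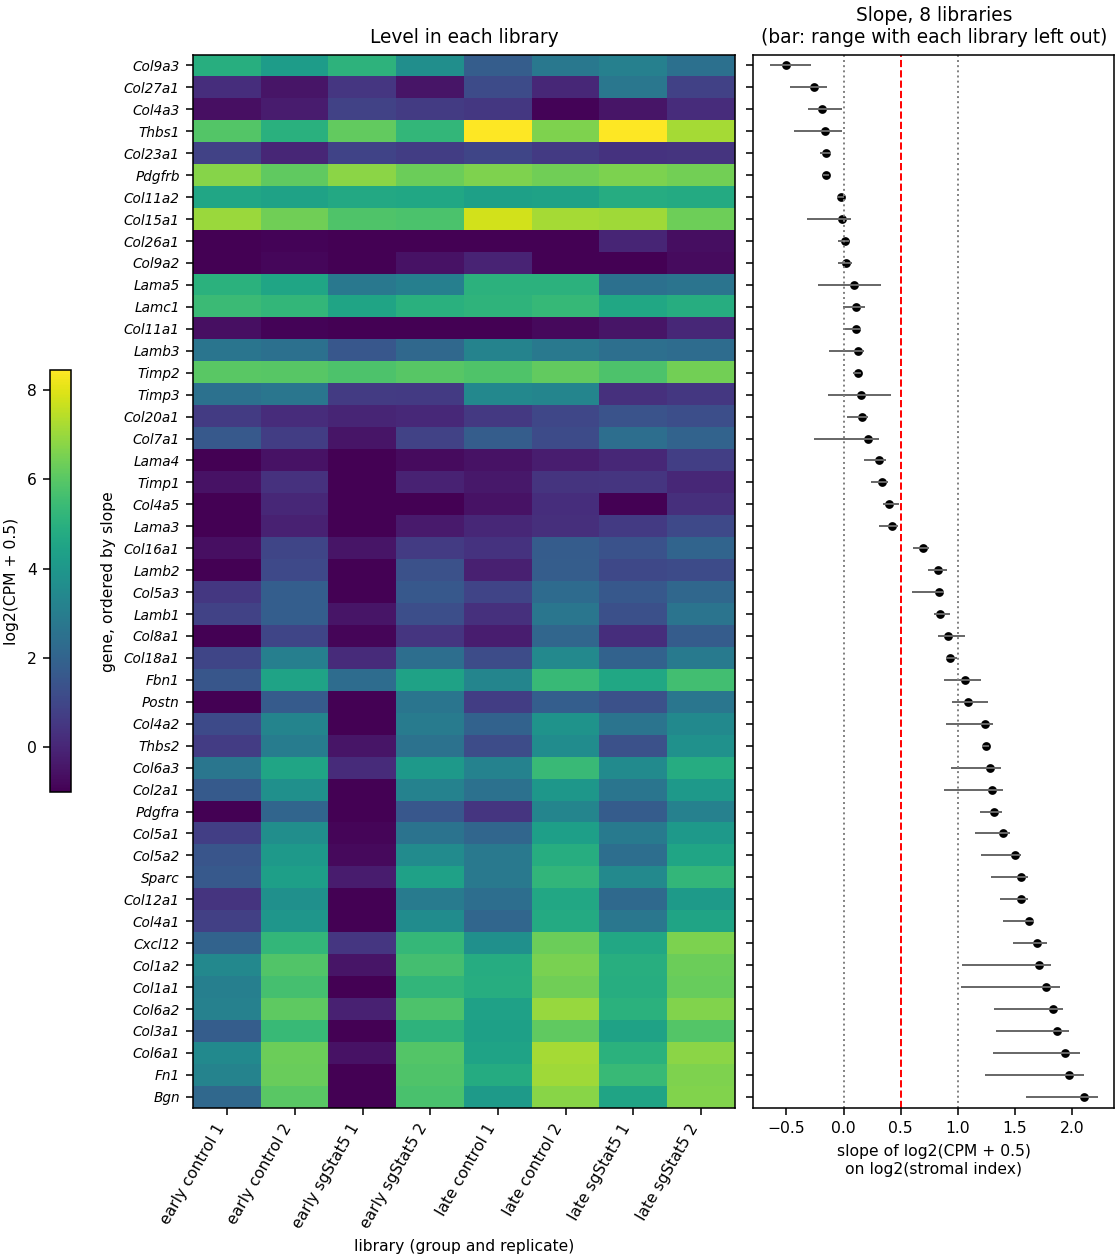
Level of 48 of the 49 members with at least 10 counts in some library (left, log2(CPM + 0.5) as colour, 1 column per library) and slope of each on the stromal index (right, dot: all 8 libraries, bar: range over fits that leave out 1 library each, red line: 0.5). From Col16a1 at 0.70 down the rows to Bgn at 2.10 the replicate 2 columns are brighter, whereas Thbs1, Pdgfrb, Col15a1 and Timp2 are bright in all 8 columns.

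Fibril-forming collagens were mostly on the stromal side, with 7 of the 10 members that reached 10 counts. Col1a1 and Col1a2, the chains of type I collagen, were the highest of the class by length-corrected level, at mean FPKM values of 4.79 and 6.07. Col1a1 (chr11:94936224-94953042, plus strand, mm10) stood at 7.99 and 50.3 CPM in early control against 0 and 36.2 in early sgStat5, and 28.9 and 83.0 in late control against 29.2 and 76.3 in late sgStat5. Replicate 2 of Col1a1 was the higher library in every group, and all 4 groups overlapped. Col1a2 ran in step, with 10.1 and 58.8 CPM in early control against 0.225 and 48.3 in early sgStat5, and 28.5 and 92.8 in late control against 29.9 and 78.8 in late sgStat5. The FPKM ratio of Col1a1 to Col1a2 kept between 0.659 and 0.893 in the 7 libraries with at least 20 counts of both. The other members of this side were Col2a1, Col3a1, Col5a1, Col5a2 and Col5a3. Col5a1, a chain of the type V collagen that starts fibrils, had 1.18 and 12.1 CPM in early control against 0.0449 and 5.54 in early sgStat5, and 3.87 and 19.7 in late control against 6.81 and 16.5 in late sgStat5. It was lowest in early sgStat5 replicate 1 and highest in late control replicate 2, the order of the index at its ends.

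The fibrillar chains on the other side were Col11a1, Col11a2 and Col27a1. Col11a2, a type XI chain known mainly from cartilage, did not vary with the index (slope -0.02). It stood between 20.2 and 28.3 CPM in all 8 libraries and at 25.2 CPM in early sgStat5 replicate 1, where Col1a1 was at 0. Col27a1, which makes thin fibrils, was low in most libraries, with 0.669 and 0.225 CPM in early control against 0.899 and 0.222 in early sgStat5, and 1.72 and 0.549 in late control against 6.28 and 1.25 in late sgStat5. Its replicate 1 was above its replicate 2 in all 4 groups, opposite to the index.

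Of the other collagens that reached 10 counts, 9 of 18 were on the stromal side. Type VI collagen, which forms beaded microfilaments around cells, was the strongest of these by length-corrected level (mean FPKM 10.5 for Col6a1). Col6a1 had 10.8 and 80.1 CPM in early control against 0.180 and 60.4 in early sgStat5, and 21.7 and 143 in late control against 32.4 and 110.3 in late sgStat5. The ratio of Col6a1 to Col6a2 in FPKM held between 0.949 and 1.20 in 7 libraries. Col6a3 had 6.06 and 22.7 CPM in early control against 0.629 and 16.5 in early sgStat5, and 8.54 and 41.7 in late control against 11.0 and 27.9 in late sgStat5. Both chains were lowest in early sgStat5 replicate 1 and highest in late control replicate 2. Col12a1, which decorates fibrils, ran from 0 and 7.09 CPM in early sgStat5 through 0.827 and 12.9 in early control to 4.20 and 17.4 in late sgStat5 and 4.86 and 24.9 in late control. Col16a1, another fibril-associated chain, had 0.157 and 1.48 CPM in early control against 0.225 and 1.07 in early sgStat5, and 0.804 and 2.84 in late control against 2.08 and 3.66 in late sgStat5. The network collagens Col4a1, Col4a2 and Col8a1 and the basement membrane collagen Col18a1 were on the same side, with slopes from 0.91 to 1.62.

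Col15a1 was the highest of the 33 other collagens by length-corrected level (mean FPKM 15.5) and had a slope of -0.01 on the index. It encodes a collagen of basement membrane zones. Its values were 129 and 84.4 CPM in early control against 57.3 and 53.7 in early sgStat5, and 224 and 142 in late control against 135 and 82.4 in late sgStat5. Replicate 1 was the higher of the pair in all 4 groups, so Col15a1 ran opposite to Col6a1 between replicates. Its late library was above the early one in all 4 pairs, which is the order of the index. The slope near 0 thus joins opposite orders and does not mean a flat level. Col9a3, a type IX chain, had 30.1 and 18.3 CPM in early control against 33.7 and 12.3 in early sgStat5, and 2.99 and 6.42 in late control against 8.04 and 5.09 in late sgStat5. It had the lowest slope of the 49 members, at -0.51, and was highest in the least stromal library. The remaining chains below 0.5 (Col20a1, Col23a1, Col26a1, Col4a3, Col4a5, Col7a1 and Col9a2) never exceeded 4.82 CPM.

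Laminins divided the other way, with 2 of 8 on the stromal side. Those were the beta chains Lamb1 and Lamb2, both of which fell below 0.5 with the index of fibrillar collagens. Lamb1 had 1.34 and 2.99 CPM in early control against 0.225 and 1.88 in early sgStat5, and 0.728 and 6.10 in late control against 1.94 and 5.70 in late sgStat5. Lamc1, the gamma chain shared by most laminin trimers, was the highest laminin by length-corrected level (mean FPKM 3.09). It had 42.3 and 37.9 CPM in early control against 22.2 and 31.0 in early sgStat5, and 34.7 and 39.4 in late control against 24.0 and 29.0 in late sgStat5. All 4 control values of Lamc1 were above all 4 sgStat5 values. Relative to Col1a1, Lamc1 varied 13.9 times between libraries in FPKM, against 1.36 times for Col1a1 relative to Col1a2. Lama5 (chr2:180176373-180225859, minus strand, mm10), the alpha chain of laminin-511, had 31.8 and 22.9 CPM in early control against 6.34 and 7.98 in early sgStat5, and 32.6 and 33.3 in late control against 5.08 and 5.70 in late sgStat5. The lowest control value, 22.9, was above the highest sgStat5 value, 7.98, and the replicates did not follow the order of the index. Lamb3, a beta chain of epithelial laminin-332, ran from 2.43 to 8.88 CPM with a slope of 0.12. Lama3 and Lama4 stayed under 2 CPM in every library, where the added 0.5 CPM flattens a slope. They alone of the 23 members below 0.5 had replicate 2 above replicate 1 in all 4 groups. Their late library was also above the early one in all 4 pairs. Both are orders of the index, so the side of these 2 chains is uncertain.

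None of the 3 TIMPs with at least 10 counts was on the stromal side. Timp2, which also helps to activate MMP2, was the highest by length-corrected level (mean FPKM 12.8). Its values were 64.4 and 62.8 CPM in early control against 54.8 and 62.8 in early sgStat5, and 57.4 and 71.0 in late control against 55.1 and 84.7 in late sgStat5. It had 54.8 CPM in the library without Col1a1 counts. Timp3 (chr10:86300412-86349505, plus strand, mm10), the TIMP that stays bound to the matrix, had 5.23 and 5.95 CPM in early control against 1.08 and 1.03 in early sgStat5, and 10.2 and 9.29 in late control against 0.751 and 0.932 in late sgStat5. The replicates of Timp3 lay close together in each group while the index differed between them by 3.37 times or more. Timp1 stayed under 1 CPM and moved to the stromal side with FPKM in place of CPM.

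Among glycoproteins and proteoglycans, 6 of 7 were on the stromal side and Thbs1 was not. Bgn, the small proteoglycan biglycan, had 4.09 and 64.9 CPM in early control against 0 and 52.3 in early sgStat5, and 17.0 and 109 in late control against 22.4 and 101 in late sgStat5. It had the highest slope of the 49 members, at 2.10. Fn1, which encodes fibronectin, kept an FPKM ratio of Col1a1 to Fn1 between 0.832 and 1.45 in 7 libraries and was at 0 in early sgStat5 replicate 1. Fbn1, the microfibril protein fibrillin-1, had 2.40 and 22.0 CPM in early control against 4.54 and 20.9 in early sgStat5, and 9.30 and 40.4 in late control against 24.4 and 47.9 in late sgStat5. Its lowest library was early control replicate 1, not early sgStat5 replicate 1. Sparc, a collagen-binding glycoprotein, had 2.60 and 19.7 CPM in early control against 0.315 and 20.6 in early sgStat5, and 6.59 and 36.8 in late control against 10.4 and 37.3 in late sgStat5. Thbs2, thrombospondin-2, had 1.10 and 7.23 CPM in early control against 0.225 and 5.36 in early sgStat5, and 1.76 and 11.7 in late control against 2.03 and 13.1 in late sgStat5. Both were highest in late sgStat5 replicate 2. Its relative Thbs1, thrombospondin-1, had 59.5 and 31.0 CPM in early control against 71.5 and 37.8 in early sgStat5, and 347 and 96.4 in late control against 339 and 144 in late sgStat5. Thbs1 was highest in the replicate 1 libraries of the late gate and ran opposite to Thbs2 between replicates in all 4 groups. Of the 10 megakaryocyte markers checked, because platelets and their precursors carry much thrombospondin-1, the defining Pf4, Ppbp and Gp9 stayed under 10 counts and Treml1 was at 0. The summed list was 194 to 275 CPM in early control against 237 to 326 in early sgStat5, and 9.15 to 69.7 in late control against 17.9 to 63.8 in late sgStat5. Nearly all of that sum in the early libraries was Itga2b, an integrin subunit of platelets. Itga2b had 191 and 271 CPM in early control against 235 and 323 in early sgStat5, and 4.94 and 66.4 in late control against 14.9 and 60.3 in late sgStat5. In late control replicate 1 it gave 4.94 of 9.15 CPM. Itga2b was lower in the late gate, where Thbs1 was higher, while Gp1ba stayed between 0.354 and 2.22 CPM. Their part in the level of Thbs1 was not tested.

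Pdgfra and Cxcl12 were on the stromal side and Pdgfrb was not, although PDGF receptors are both textbook mesenchymal genes. Pdgfra had 0 and 3.76 CPM in early control against 0 and 2.44 in early sgStat5, and 0.881 and 9.39 in late control against 2.83 and 8.28 in late sgStat5. Pdgfrb had 105 and 69.4 CPM in early control against 110.3 and 78.6 in early sgStat5, and 97.1 and 84.0 in late control against 94.0 and 85.6 in late sgStat5. Pdgfrb was highest in the least stromal library, and the FPKM ratio of Pdgfrb to Pdgfra ran from 10.9 to 134 over the 6 libraries with at least 20 counts of both. Cxcl12 had 3.54 and 37.3 CPM in early control against 0.899 and 38.5 in early sgStat5, and 12.9 and 78.4 in late control against 24.6 and 95.1 in late sgStat5. Replicate 2 of Cxcl12 was above replicate 1 in every group, the order of the index.

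**Figure D2:**
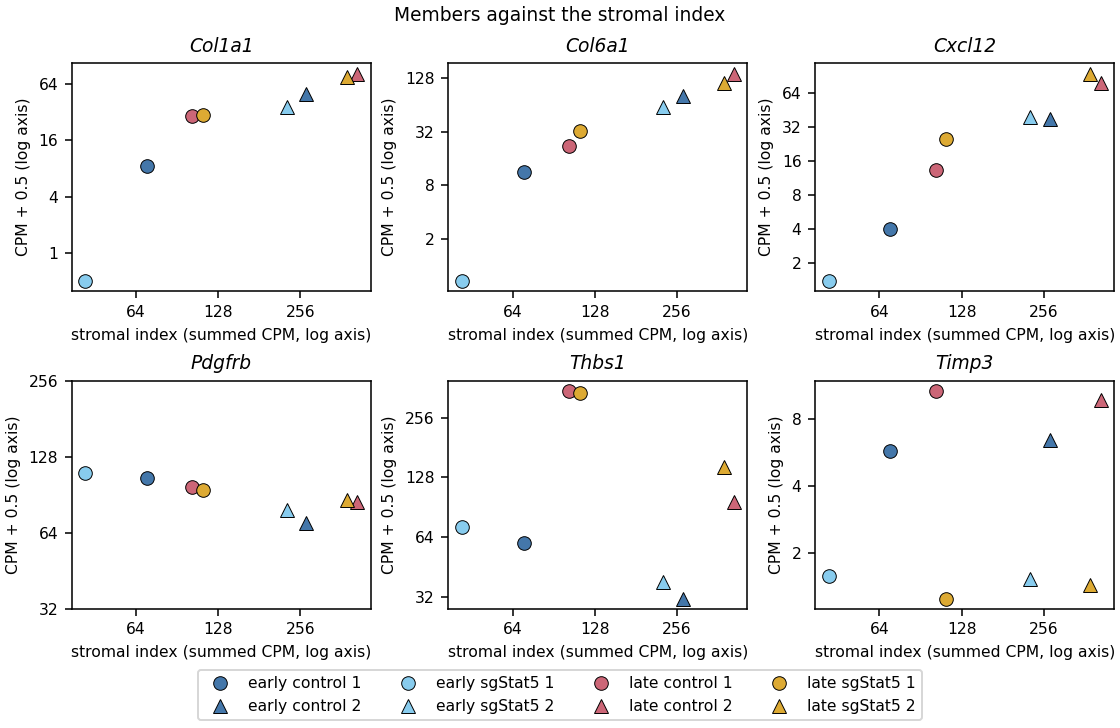
CPM + 0.5 of 6 members against the stromal index, both on log2 axes, with 1 point per library (circle: replicate 1, triangle: replicate 2, colour: group). Col1a1, Col6a1 and Cxcl12 climb with the index from early sgStat5 replicate 1 at 41.7 CPM of index to late control replicate 2 at 413, while Pdgfrb, Thbs1 and Timp3 do not.

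Read by pattern, replicate 2 was above replicate 1 in all 4 groups for 26 of 26 stromal-side members, and for 2 of the 23 others (Lama3 and Lama4). That order was seen in 19.5% of all tested genes. The index that set the division was itself higher in replicate 2 of every group. The order of the 26 thus largely follows from how they were chosen and is no separate result. The 26 summed to 82.6 and 654 CPM in early control against 8.67 and 517 in early sgStat5, and 239 and 1143 in late control against 330 and 991 in late sgStat5. The 23 others summed to 503 and 364 CPM in early control against 389 and 319 in early sgStat5, and 845 and 517 in late control against 712 and 482 in late sgStat5. Stromal-side members thus made up from 2.17% (early sgStat5 replicate 1) to 68.8% (late control replicate 2) of all member counts. The adipocyte markers Fabp4 and Lpl, checked because OP9 cells can turn into fat cells, also stood higher in every replicate 2 library (Fabp4 had 10 and 135 counts in early control against 4 and 145 in early sgStat5, and 54 and 255 in late control against 48 and 160 in late sgStat5). The summed 10-gene adipocyte list was 11.1 to 22.8 CPM in early control against 5.35 to 15.8 in early sgStat5, and 22.4 to 33.2 in late control against 18.2 to 25.3 in late sgStat5, with Lep at 0. Pparg, the adipocyte transcription factor, made up much of these sums and had another order, with 8.07 and 6.14 CPM in early control against 3.5 and 3.95 in early sgStat5, and 16.5 and 5.90 in late control against 9.68 and 3.59 in late sgStat5. Its replicate 1 was the higher one in 3 of 4 groups. Endothelial cells make basement membrane as well, and of their 10 markers Tek, Cldn5 and Emcn were at 0 and Cdh5 and Kdr under 10 counts in every library. The list summed to 158 to 175 CPM in early control against 173 to 201 in early sgStat5, and 145 to 174 in late control against 187 to 202 in late sgStat5. Most of that was Pecam1, an adhesion molecule that leukocytes also carry, at 126 to 194 CPM, and Egfl7 stood at 6.76 to 18.4 CPM. Esam, Tie1 and Vwf also reached 10 counts in some library, at no more than 1.66, 0.899 and 0.460 CPM. Pecam1 rose with sgStat5 in the late gate in edgeR with the replicate number as a block (0.36, SE 0.08, adjusted p = 0.0259), where 8.22% of all genes were called. The part of these cells in the levels was not tested.

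The 250 bases before the counted start of Timp3, Lama5 and Col15a1 are shown because they are the members that the guides changed, as given further on. Capitals mark GC boxes (GGGCGG or its reverse complement CCGCCC), common sites of SP-family factors. The windows come from RefSeq (GRCm38.p6) and are written 5′ to 3′ on the gene's strand, Timp3 at chr10:86300162-86300411 on the plus strand, Lama5 at chr2:180225860-180226109 on the minus strand and Col15a1 at chr4:47207762-47208011 on the plus strand.
Timp3: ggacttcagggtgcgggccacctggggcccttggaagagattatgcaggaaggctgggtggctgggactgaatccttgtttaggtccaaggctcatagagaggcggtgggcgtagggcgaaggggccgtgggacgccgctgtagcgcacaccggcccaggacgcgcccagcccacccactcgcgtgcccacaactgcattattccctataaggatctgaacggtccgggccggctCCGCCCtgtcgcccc
Lama5: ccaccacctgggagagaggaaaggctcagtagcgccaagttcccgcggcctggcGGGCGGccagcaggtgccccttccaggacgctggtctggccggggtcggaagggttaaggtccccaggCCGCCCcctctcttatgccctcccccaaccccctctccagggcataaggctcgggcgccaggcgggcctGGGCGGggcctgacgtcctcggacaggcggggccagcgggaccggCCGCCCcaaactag
Col15a1: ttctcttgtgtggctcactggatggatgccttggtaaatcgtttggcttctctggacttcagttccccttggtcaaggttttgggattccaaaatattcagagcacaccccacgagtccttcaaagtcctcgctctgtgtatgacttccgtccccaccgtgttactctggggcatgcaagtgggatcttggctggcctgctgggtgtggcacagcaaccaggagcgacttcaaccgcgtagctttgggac
The Timp3 window holds 1 GC box, that of Lama5 holds 4 and that of Col15a1 holds 0, where 32.7% of the 32851 windows in the table hold at least 1, as do 29 of the 51 members with an entry (56.9%). Their GC contents are 65.6%, 72.4% and 53.6%, against a median of 52.4% over all windows. The consensus bound by STAT5 dimers, TTCNNNGAA, which reads the same on both strands, was searched for. It is in none of the 3 windows, in 7.02% of all windows and in 3 of the 51 members (Col28a1, Col6a5 and Lamb2). Absence of these letters from 250 bases says nothing about sites elsewhere.

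In the early gate, sgStat5 lowered 2 of the 45 tested members, Timp3 and Lama5, and raised none. Across all 13775 genes edgeR's quasi-likelihood test called 0.269% at an adjusted p under 0.05, with 0.145% lower. Timp3 was -2.40 on the log2 scale (SE 0.30, adjusted p = 0.0382) and Lama5 was -1.93 (SE 0.21, adjusted p = 0.0213). With the replicate number as a block, which pairs libraries of the same number, the calls were Timp3, Lama5 and Col15a1 (log2 fold change -0.90, SE 0.14, adjusted p = 0.0114), and 2.33% of all genes passed (1.33% lower). The median over the 45 members was -0.59, against -0.0001 over all genes. CPM values of the control and sgStat5 libraries did not overlap for 2 members in the higher and 7 in the lower direction, where 18.7% and 19.4% of all genes did the same. Without the block the adjusted p of Timp3 ran from 0.0659 to 0.305 when any 1 library was left out, and that of Lama5 from 0.0466 (without late control replicate 2) to 0.228. With the block Timp3 lost its call without early control replicate 2 (adjusted p = 0.0524) and Col15a1 without either early control library, while Lama5 kept it in all 8 fits.

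In the late gate the same pair fell, Timp3 by 3.52 on the log2 scale (SE 0.31, adjusted p = 0.00451) and Lama5 by 2.61 (SE 0.22, adjusted p = 0.00451). No tested member rose. The background was 1.71% of 13775 genes, 0.951% lower. Both calls were kept in all 8 fits that left out 1 library. With the block Col15a1 was again the added call (log2 fold change -0.75, SE 0.14, adjusted p = 0.00974, background 8.22%, 4.49% lower), and it was lost without late control replicate 1 or late sgStat5 replicate 2. The median over the 45 members was -0.02 without the block and 0.23 with it, against -0.02 and -0.01 over all genes, so its sign turned with the block. Non-overlapping CPM values were seen for 5 members in the higher and 6 in the lower direction (background 18.1% and 20.8%). The late effect minus the early effect was -1.12 for Timp3 (SE 0.41) and -0.68 for Lama5 (SE 0.29), each with an adjusted p of 1. For this difference edgeR called 0 of 45 members and 0 of 13775 genes (0.0%), with 1 member and 302 genes at an unadjusted p under 0.05. DESeq2 called 0 members and 2 genes (0.0145%).

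**Figure D3:**
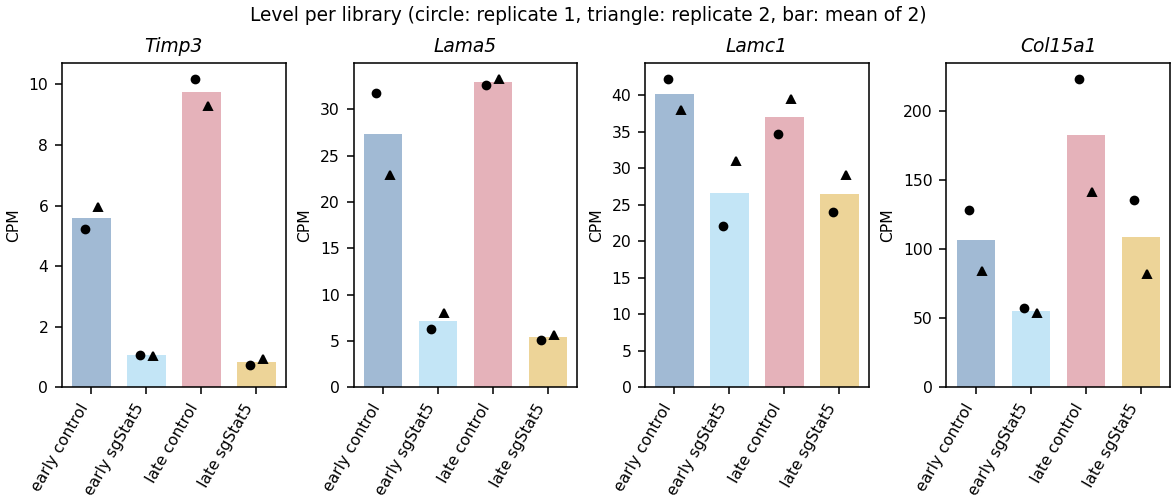
CPM of Timp3, Lama5, Lamc1 and Col15a1 in each library (circle: replicate 1, triangle: replicate 2) with the mean of 2 as a bar, by group. For Timp3, Lama5 and Lamc1 the 4 control libraries stand above the 4 sgStat5 libraries, whereas Col15a1 overlaps between early control (84.4 and 129) and late sgStat5 (82.4 and 135).

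Timp3, Lama5 and Col15a1 were present in the least stromal library and had slopes near 0. For Col15a1 that slope joins opposite orders between replicates and between gates, as given above. The guide effect on Timp3 and Lama5 was about as large with the stromal index in the fit, and that on Col15a1 depended on whether the block was there too. With the index as a covariate Timp3 was -2.39 in the early gate (adjusted p = 0.00764) and -3.52 in the late gate (adjusted p = 0.000406). Lama5 was -1.93 (adjusted p = 0.00247) and -2.61 (adjusted p = 0.000313). Col15a1 was -1.01 (adjusted p = 0.0194) and -0.75 (adjusted p = 0.0289). In that fit 1.88% of all genes passed in the early and 6.9% in the late gate, and no other member did. With the index and the block together, the late calls of these 3 stood, at -3.53, -2.60 and -0.76, and the early ones were lost, at a background of 0.276% early and 7.66% late. The early values were then -2.63 for Timp3 (adjusted p = 0.22), -1.65 for Lama5 (adjusted p = 0.211) and -0.45 for Col15a1 (adjusted p = 0.52), the last against -0.90 with the block alone. The index of early sgStat5 was itself below that of early control in both pairs, at 0.595 and 0.846 times.

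The counts of Timp3 have a neighbour to keep in mind. Timp3 lies inside Syn3, a synapsin gene on the opposite strand, and 36.7% of its exon bases (1733 bases, GENCODE M21) overlap Syn3 exons. The headers name no strand option, so reads of the shared bases cannot be assigned to a strand. Syn3 had 381 and 420 counts in early control against 373 and 360 in early sgStat5, and 352 and 434 in late control against 203 and 372 in late sgStat5, where Timp3 had 133 and 185, 24 and 28, 266 and 288, and 17 and 26. In CPM, Syn3 stood at 15.0 and 13.5 in early control against 16.8 and 13.3 in early sgStat5, and 13.5 and 14.0 in late control against 8.97 and 13.3 in late sgStat5. It was higher in 1 and lower in 1 of the early pairs with sgStat5 and lower in both late pairs, the direction of Timp3. No other gene's exons overlap those of Lama5. Col9a3, which is called between gates below, shares 8.08% of its exon bases (230 bases) with Tcfl5 on the opposite strand. Tcfl5 had 7 and 10 counts in early control against 22 and 8 in early sgStat5. It had 0 and 2 in late control against 6 and 0 in late sgStat5. Its part in the counts of Col9a3 was not tested.

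With all 8 libraries no stromal-side member was called for sgStat5 in either gate, with or without the block, and their intervals were wide. Some, such as Col1a1, passed in a blocked fit that left out 1 library and so rested on a lone library in 1 group. Over such fits the early value of Col1a1 ran from -11.2 to -0.16. Col1a1 was -0.68 in the early gate with an SE of 1.59 (adjusted p = 1) and -0.08 in the late gate with an SE of 1.57 (adjusted p = 0.993). Several members below a slope of 0.5 had narrower errors. Pdgfrb was 0.11 (SE 0.23) early and -0.01 (SE 0.23) late, Timp2 was -0.11 (SE 0.21) and 0.12 (SE 0.21), and Thbs1 was 0.27 (SE 0.68) and 0.13 (SE 0.67), none past the threshold. Others below 0.5 were as uncertain as the stromal side, such as Lama4 (SE 1.74 early and 1.49 late), Lama3 (1.71 and 1.58) and Timp1 (1.50 and 1.44). Lamc1, the laminin partner of Lama5, was -0.59 (SE 0.19, adjusted p = 0.56) in the early and -0.48 (SE 0.19, adjusted p = 0.363) in the late gate, and with the block the adjusted p-values were 0.103 and 0.0977. Lamb3 was -0.76 (SE 0.33) and -0.70 (SE 0.33), also short of the threshold. Lower values in every sgStat5 library than in the control library of the same gate and number were seen for 7 of the 45 tested members, where 18.9% of all genes did the same. They were Col15a1, Lama5, Lamb3, Lamc1 and Timp3 below a slope of 0.5, and Col12a1 and Col5a2 on the stromal side. Higher values in all 4 pairs were seen for Col11a2 alone among the 45, at a background of 16.5%.

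**Figure D4:**
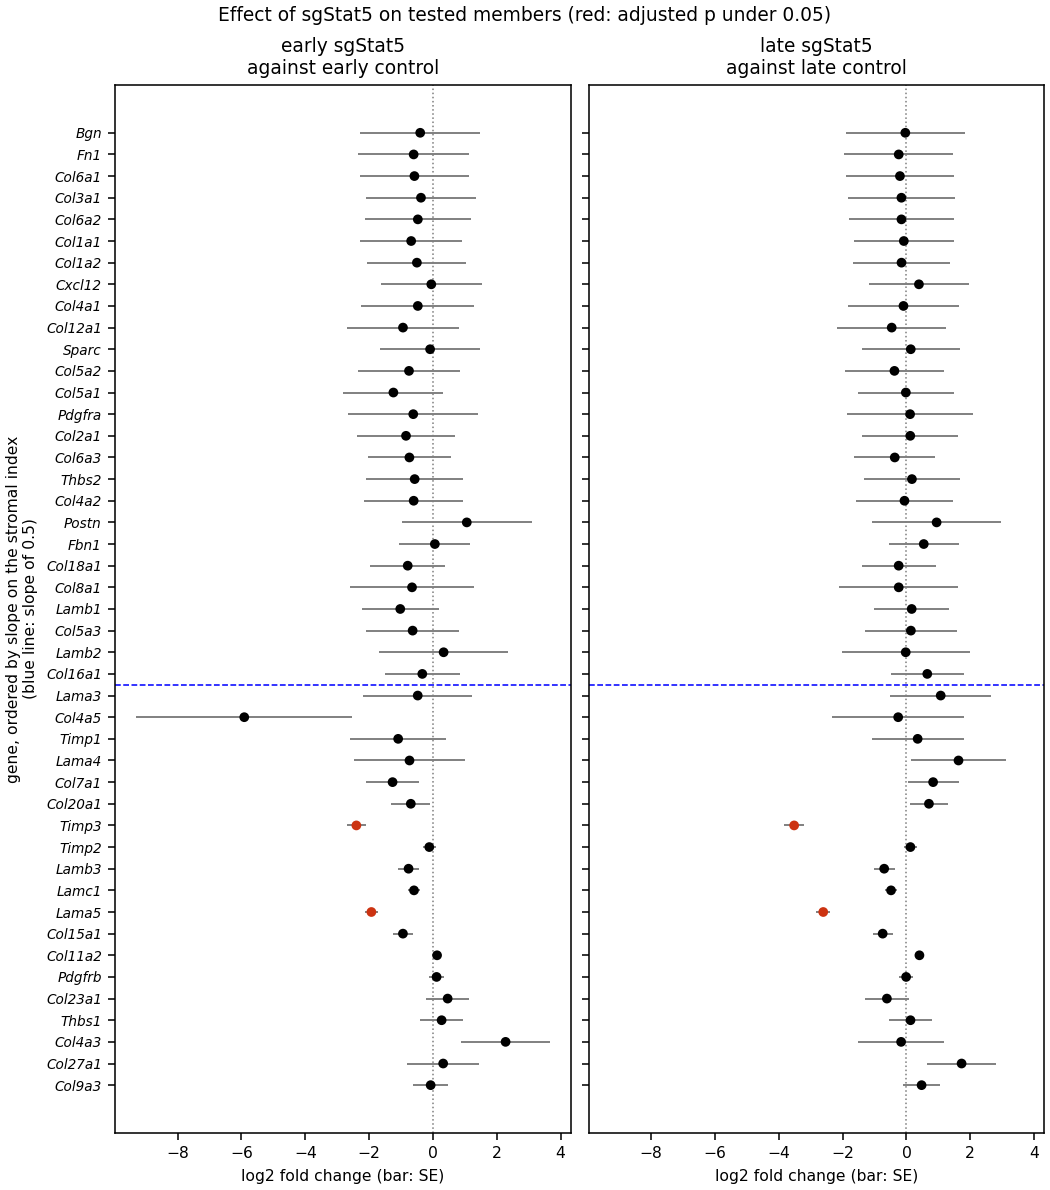
Log2 fold change of the 45 tested members with its SE for sgStat5 against control in the early (left) and late gate (right), ordered by slope on the stromal index with the 0.5 division in blue. Timp3 and Lama5 are the 2 members called without the block (red), members above the blue line have SEs above 1, and the far point of Col4a5 on the left rests on 0 counts in both early sgStat5 libraries and is no bound.

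Between gates, no member passed without the block. In control cells edgeR called 0 of 45 members and 2 of 13775 genes (0.0145%), with 4 members and 2049 genes at an unadjusted p under 0.05, and DESeq2 called 1 member, Col9a3 (background 4.27%). In sgStat5 cells it called 0 of 45 members and 134 genes (0.973%), with 6 members and 3305 genes at an unadjusted p under 0.05, and DESeq2 called Col15a1, Col7a1 and Col9a3 (background 12%). Each gate comparison shares its libraries with the guide comparisons above.

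With the block, Thbs1 and Col15a1 rose and Col9a3 fell from the early to the late gate in control cells, 3 of 45 members where 10.9% of all genes passed (6.64% higher and 4.3% lower). Thbs1 was 2.12 on the log2 scale (SE 0.20, adjusted p = 0.00099; without the block 2.29, SE 0.70, adjusted p = 0.253). Col15a1 was 0.77 (adjusted p = 0.0107; without the block 0.78, adjusted p = 0.318) and Col9a3 was -2.22 (SE 0.47, adjusted p = 0.0201; without the block -2.35, SE 0.58, adjusted p = 0.213). Thbs1 kept its blocked call in all 8 fits that left out 1 library. Col15a1 and Col9a3 lost theirs without either early control library or without late control replicate 1. With the index as a covariate and no block the 3 calls were the same, Thbs1 at 2.48 (adjusted p = 0.0013), Col15a1 at 0.91 and Col9a3 at -2.06 (adjusted p = 0.0277), at a background of 12.3%.

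In sgStat5 cells the block gave 13 higher members and 1 lower, at a background of 22.8% (11.3% higher and 11.5% lower). From the side below a slope of 0.5 came Thbs1 (2.09, adjusted p = 0.000357), Col15a1 (0.92, adjusted p = 0.00258), Col27a1 (2.65, SE 0.62, adjusted p = 0.0162) and the lower Col9a3 (-1.74, SE 0.46, adjusted p = 0.0251). The other 10 were stromal-side members, namely the collagens Col5a1 (2.80, SE 0.68), Col6a3 (1.77, SE 0.53), Col12a1 (2.25, SE 0.70) and Col16a1 (2.49, SE 0.70), the laminin chain Lamb1 (2.14, SE 0.58), Fbn1 (1.86, SE 0.39), Sparc (1.91, SE 0.58) and Thbs2 (1.74, SE 0.40), and Cxcl12 (2.34, SE 0.53) and Pdgfra (3.25, SE 1.01). Their early values rest in part on early sgStat5 replicate 1, in which 7 of the 10 were lowest and Pdgfra was at 0, as it was in early control replicate 1. Without late sgStat5 replicate 1 none of the 10 kept its blocked call, and without early sgStat5 replicate 1 only Cxcl12, Col5a1 and Thbs2 did. Col6a3, Col12a1, Col16a1, Lamb1, Pdgfra, Sparc and Thbs2 also lost theirs without 1 or more other libraries. Col27a1 lost its call without early or late sgStat5 replicate 1, and Col9a3 without either of them or late sgStat5 replicate 2. The stromal index moved the same way, by 2.70 and 1.66 times in the pairs of replicate 1 and replicate 2, with 8 of its 34 tested genes higher (Snai2, Ddr2, Fstl1, Pcolce, Cald1, Dll1, Lox and Ccdc80). With the index as a covariate and no block, none of the 10 was called, and the calls were Thbs1 (2.73), Col15a1 (1.18), Col27a1 (3.72, adjusted p = 0.00521) and Col7a1 (2.40, adjusted p = 0.0493), at a background of 26.2%.

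Early sgStat5 replicate 1 weighed on these counts. Without it early sgStat5 is 1 library, which is assumed to vary like the other groups, as is the lone library of any group in a fit that leaves 1 out. In the blocked fit without it, 8 members were higher in late than in early sgStat5 cells (Col15a1, Col1a1, Col5a1, Col5a2, Col6a1, Cxcl12, Thbs1 and Thbs2) and 0 lower, at a background of 7.17%. In control cells the same fit called 13 members at a background of 12.1%, 12 higher and Col9a3 lower. The higher ones included Col1a1 (1.18, SE 0.25, adjusted p = 0.0184), Col6a1 (0.89, SE 0.22) and Bgn (1.17, SE 0.31). The guide calls of Timp3, Lama5 and Col15a1 remained in both gates of that fit, at -2.47, -1.71 and -0.63 in the early gate, where 1.2% of all genes passed early and 8.58% late. The blocked count in sgStat5 cells also fell without late sgStat5 replicate 1 and rose without early sgStat5 replicate 2. The share of all genes in those fits was not taken, so these changes cannot be set against a background.

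**Figure D5:**
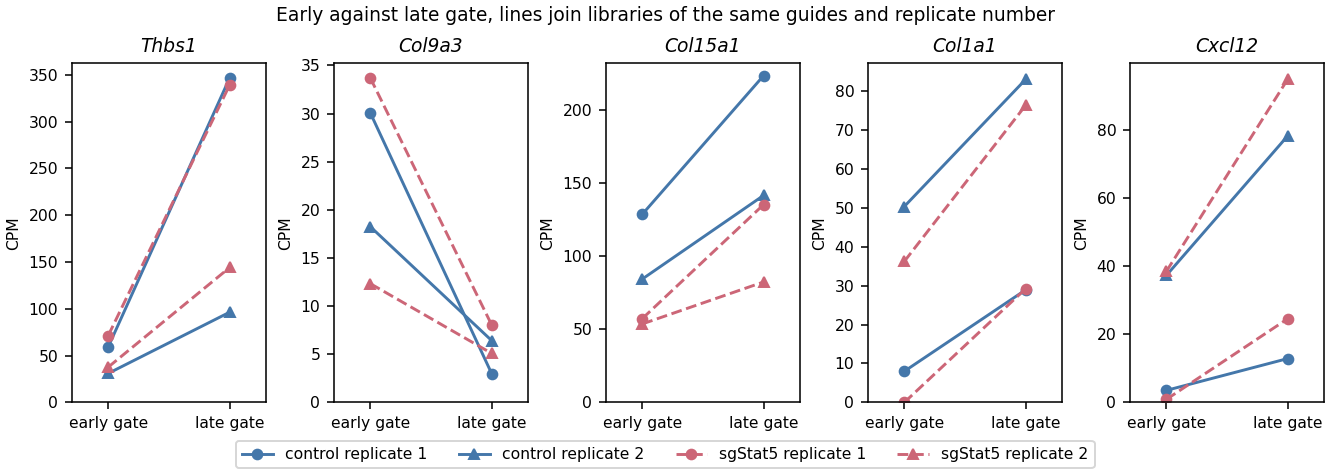
CPM of 5 members in the early and late gate, where each line joins the libraries of the same guides and replicate number (blue: control, red dashed: sgStat5, circle: replicate 1, triangle: replicate 2). Thbs1 is higher and Col9a3 lower in the late gate in 4 of 4 pairs, Col15a1 is higher in 4 of 4, and Col1a1 and Cxcl12 are higher in 4 of 4 with replicate 2 above replicate 1 in every group.

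The genes that process, cut and read the matrix were followed from further lists. Of 25 tested genes for collagen processing and cross-linking, none passed for sgStat5 without the block. With it P4hb, a subunit of collagen prolyl hydroxylase, fell in the late gate (-0.34). It was the 1 call of the 25 there, where 8.22% of all genes passed (4.49% lower). Serpinh1, the collagen chaperone, had 4.09 and 14.1 CPM in early control against 0.180 and 9.09 in early sgStat5, and 4.17 and 21.7 in late control against 8.09 and 27.7 in late sgStat5, and rose with the block from early to late sgStat5 cells (2.43). In that comparison 3 of the 25 rose and 4 fell, a share of called genes near the 22.8% of all genes. The others that rose, Pcolce and Lox, are also genes of the stromal index and were counted there. Those that fell included Colgalt1 (-0.45), P4hb (-0.33) and Plod3 (-0.55). The list summed to 1197 to 1282 CPM in early control against 1061 to 1172 in early sgStat5, and 1038 to 1239 in late control against 865 to 1053 in late sgStat5. P4hb alone gave 430 to 650 CPM of it.

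A list of metalloproteinases, with their inhibitor Reck, had 27 tested genes and no call for sgStat5 or between gates without the block. With it 3 were called in the early gate (background 2.33%) and 2 in the late gate (8.22%). Adam19 fell with sgStat5 in both gates (-2.38 early and -2.02 late), Adamts6 fell in the early gate (-1.07), Adamts9 fell in the late gate (-2.11) and Adamts10 rose in the early gate (0.53). Adamts9 had 3.78 and 4.50 CPM in early control against 2.25 and 1.81 in early sgStat5, and 9.80 and 10.3 in late control against 1.55 and 3.19 in late sgStat5, the control values all above the sgStat5 values. Between gates 5 were called in control cells and 6 in sgStat5 cells, where 10.9% and 22.8% of all genes were. Adam19, Adamts6 and Adamts10 rose and Adam15 fell from the early to the late gate in both control and sgStat5 cells with the block. Adam10 and Adam17, the sheddases that TIMP3 can inhibit, were not called for sgStat5 and stood at 158 to 183 and 90.3 to 130 CPM.

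Receptors for matrix and for CXCL12 had 30 tested genes. In the late gate without the block sgStat5 raised Itga4 and lowered Itgav, where 1.71% of all genes were called. With the block 3 of the 30 were called in each gate (background 2.33% early and 8.22% late), 5 between gates in control cells (10.9%) and 7 in sgStat5 cells (22.8%). Among the 7 was Ddr2, which is also a gene of the stromal index. Itga4, a subunit of the fibronectin receptor VLA-4, was 0.90 (SE 0.10, adjusted p = 0.00755), with 820 and 937 CPM in late control against 1649 and 1631 in late sgStat5. Itgav, a subunit of the vitronectin receptor, was -0.77 (SE 0.12, adjusted p = 0.0352), with 58.8 and 51.6 CPM against 31.3 and 33.6. With the block, Itga6, the alpha subunit of laminin-binding integrins and so a receptor for the product of Lama5, fell in both gates (-0.48, adjusted p = 0.0216, and -0.99, adjusted p = 0.000224), while Itga4 (0.63) and Itga9 (1.50) rose in the early gate. Itga6 had 260 and 160 CPM in early control against 172 and 125 in early sgStat5, and 278 and 201 in late control against 149 and 95.5 in late sgStat5. Itgb4, the laminin-332 receptor subunit, and Bcam, which binds the laminin alpha-5 chain, rose from the early to the late gate with the block in control (1.17 and 2.02) and sgStat5 cells (2.30 and 2.41). Cd44, the hyaluronan receptor, fell in both (-1.15 and -1.80). Cxcr4, the receptor of CXCL12, stood between 92.9 and 152 CPM and rose slightly in both (0.40 and 0.40). Basement membrane partners had 8 tested genes, of which Hspg2, the proteoglycan perlecan, was the 1 that rose, in late against early sgStat5 cells with the block (2.13, background 22.8%).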

How the data were processed

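Bulk RNA of 8 libraries was analysed. Per the file headers, the authors made the deposited counts by running HOMER's analyzeRepeats without adjustment, on the exons of a single RefSeq transcript for each gene (mm10), and the deposited FPKM values with the same program, scaled to length and depth. Tools listed in the submitters' processing notes are STAR 2.4.0, RSEM 1.2.25 and bcl2fastq 1.8.4, with GRCm38/mm10 as the build. FPKM values of Fn1, Cxcl12, Col2a1, Col6a3, Lama3 and Postn use another transcript than the counts.

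Counts were tested with edgeR 4.0.16 (R 4.3.3): filterByExpr kept 13775 genes, TMM scaled libraries, and quasi-likelihood F-tests were fitted to all 8 libraries, two-sided, with Benjamini-Hochberg adjustment over all tested genes at 0.05. CPM are counts over TMM-scaled totals. SE is the absolute log2 fold change over the root of F. DESeq2 1.42.0 and limma 3.58.1 on log2(FPKM + 0.1) were alternatives. Only the edgeR fit without block or covariate was tried on simulated counts. Those held no difference between replicates, so they cannot show how any fit handles the replicate differences seen here. Replicate numbers pair the libraries: deviations of same-numbered libraries correlated at 0.421 to 0.578 between groups, so blocked values stand beside the results they change.

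Genes given with every library are Timp3, Lama5, Col1a1, every member called with or without the block, and the 2 highest by FPKM of each class. From other lists up to 4 called genes per comparison were to be named, and many of these are given by fold change alone. Called genes of the T-progenitor, myeloid and megakaryocyte lists are not given by fold change. Dll1 and a few others, and Fn1 as a ratio, were added after their values were seen. Members and lists were chosen with earlier results of these data known. Values of 2 genes are not reported here.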

Additional observations from a re-analysis of the deposited data

How the results depend on the processing

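The numbers pair the libraries, and the replicate block moved the count of called members from 0 to 3 for late against early control and from 0 to 14 for late against early sgStat5. The stromal index as a covariate gave 3 and 4 members in these comparisons, and DESeq2 gave 1 and 3. Index and block together gave 0 members for early sgStat5 against control, where 2 were called without them. Leaving out 1 library without the block left 0 to 1 called members for early sgStat5, and 2 for late sgStat5 in each of 8 fits. With the block and 1 library left out, chosen after seeing the data, the counts were 1 to 17 for early sgStat5 (17 without early sgStat5 replicate 2), 3 to 4 for late sgStat5 (4 without late control replicate 2) and 0 to 4 for the difference between these effects (4 without early sgStat5 replicate 2). They were 1 to 13 for the gates in control cells (13 without either early sgStat5 library, 1 to 4 without any other) and 2 to 26 in sgStat5 cells (2 and 26 without late sgStat5 replicate 1 and early sgStat5 replicate 2, 8 without early sgStat5 replicate 1, and 11, 12, 13, 14 and 15 without the others). With 1 library left out, the share of all genes is given only for the blocked fit without early sgStat5 replicate 1. That fit has no share for the difference between the guide effects. The other counts, the 17 and 4 without early sgStat5 replicate 2 among them, are thus not set against a background. Each such fit also rests on a lone library in 1 group. An index of Col1a1, Col1a2 and Col3a1 put 14 of 46 members at a slope of 0.5 or more in place of 26 of 49. With FPKM in place of CPM only Timp1 changed side, and with Dll1 as the index, added after seeing the data, only Col16a1 did. On log2(FPKM + 0.1) limma gave an adjusted p of 0.118 to both Timp3 and Lama5 in the early gate, above 0.05, and 0.00947 and 0.0136 in the late gate. The number of all genes called also moved, from 37 to 321 with the block for early sgStat5 and to 248 with DESeq2. The causes were not tested. Timp3 and Lama5 stayed below 0 in both guide comparisons under every alternative, whereas Col15a1 in late against early sgStat5 was -0.08 with index and block in place of 0.92 with the block. Depth limits the 22 members under 10 counts, for which no comparison was made.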
